A study of Homo sapiens with 16 samples.

Results

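Interferon-stimulated genes were followed through 8 groups of human colon cancer cells. They were 43 genes, taken by symbol from the deposited FPKM table and matched by Ensembl identifier to the deposited count table, where all 43 were found among 63677 genes. RNA-seq was done on 2 established colon cancer lines, SW480 and its metastasis-derived counterpart SW620, with 16 libraries in 8 groups of 2. The SW620 groups were untransduced parental cells, cells carrying an empty vector, and cells transduced with ERB, the estrogen receptor beta. The SW620 cells with ERB were left untreated, given DMSO, or given 10 nM estradiol, the treatments lasting 24 h. SW480 was sampled as the parental line, with empty vector and with ERB, all untreated. All cells grew in DMEM with fetal bovine serum, and no group received interferon. The labels do not say that libraries I and II of a group came from separate cultures, or whether a transduced line is 1 clone, so p-values measure only the spread between these libraries.

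Interferons are secreted proteins that bind receptors on the cell surface and, through the kinases JAK1 and TYK2, activate a transcription factor complex that contains STAT2 and IRF9. This complex binds the interferon-stimulated response element, a short DNA motif, and switches on a large set of antiviral genes. Many of these genes also have a low level of expression in the absence of interferon, and that level can differ between tumour lines. The members were ordered by role: membrane and entry restriction, RNA sensors, RNA-binding and RNA-degrading effectors, the ISG15 conjugation system, antiviral GTPases and other effectors, transcription factors, PARP proteins, and apoptosis-related and other induced genes.

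The libraries held 12743940 to 18948283 reads in genes. Reads of ESR2, the gene of ERB, numbered 0 to 4 in the libraries without ERB and 100 to 187 in those with it. The SW480 libraries labelled empty vector went against their line label on 299 genes that were at least 8-fold higher in parental SW480 than in parental SW620, members and pathway genes left out. Their levels were 2.21 and 2.08% of the parental SW480 level, beside 1.41 to 2.004% in the SW620 libraries, and the SW480 libraries with ERB stood at 17.1 and 20.9%. On 35 genes that were as much higher in SW620, the SW480 libraries labelled empty vector stood at 28.8 and 66.2% of the parental SW620 level. Parental SW480 stood at 4.58 and 5.59%, and the SW480 libraries with ERB at 54.4 and 48.3%. The libraries with ERB thus also departed from parental SW480 on both sets of genes. ERB versus parental is the SW480 comparison that does not use the 2 SW480 libraries labelled empty vector; the comparisons between lines that rest on them have no such counterpart. Libraries also differed by the GC content of transcripts: the fifth of genes with the highest GC deviated from the mean of all libraries by -0.91 to 1.13 on the log2 scale. Colon epithelial markers summed to 2897 to 30410 CPM (counts scaled to library size), with CDX1 at 0 reads in all libraries. Leukocyte markers summed to 0.73 to 4.83 CPM, fibroblast markers to 3.89 to 22.3 CPM with COL3A1 and FAP at 0, and endothelial markers to 0.51 to 3.99 CPM with PECAM1 at 0. In bulk libraries, fewer cells of a type and less RNA per cell cannot be told apart.

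The DNA that could carry the interferon response is shown for 6 members whose levels the results turn on. RefSeq promoter windows (GRCh38.p14; 250 bases before to 50 bases after the gene start) were matched for 35 of 43 members, those of IFITM2, IFIT2, OAS2, OASL, USP18, MX2, TRIM22 and IRF7 being unmatched. The letters GAAANNGAAA, searched on both strands as the interferon-stimulated response element, were in 21 of 35 member windows (60%) and in 996 of 27305 windows of all genes (3.65%). The letters GGTCANNNTGACC, searched on both strands as the estrogen response element, were in 0 of 35 member windows and in 18 of 27305 (0.0659%) of all. The stretches below read 5′ to 3′ along the gene's strand, and capitals mark matches to GAAANNGAAA, which appear as their reverse complement where the match is on the opposite strand. IFITM1, IFI27, BST2 and PARP14 are shown because they were high in parental SW480, and OAS3 and IFI6 because they were low in the treated SW620 cells. The OAS3 stretch holds the match at position -143 relative to the gene start. A further match in the OAS3 window, at position -12, lies outside the stretch and is not shown.
IFITM1, chr11:313965-314043, plus strand: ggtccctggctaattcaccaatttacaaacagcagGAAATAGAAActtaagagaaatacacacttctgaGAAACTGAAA
IFI27, chr14:94110593-94110685, plus strand: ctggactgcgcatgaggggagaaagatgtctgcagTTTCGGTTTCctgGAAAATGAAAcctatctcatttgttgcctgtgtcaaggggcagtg
BST2, chr19:17405710-17405795, minus strand: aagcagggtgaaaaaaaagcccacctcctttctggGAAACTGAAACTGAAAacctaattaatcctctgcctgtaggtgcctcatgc
PARP14, chr3:122680775-122680838, plus strand: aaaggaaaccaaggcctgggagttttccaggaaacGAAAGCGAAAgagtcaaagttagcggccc
OAS3, chr12:112938296-112938375, plus strand: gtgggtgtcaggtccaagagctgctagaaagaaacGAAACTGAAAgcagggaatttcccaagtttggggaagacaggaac
IFI6, chr1:27672241-27672383, minus strand: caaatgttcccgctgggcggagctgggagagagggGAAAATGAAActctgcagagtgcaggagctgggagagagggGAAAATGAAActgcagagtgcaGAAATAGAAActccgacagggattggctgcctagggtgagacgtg
The windows of UBE2L6, IFI35 and OAS1, which also turn up in the results, held no match to these letters.

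Levels between genes were compared on the FPKM scale, which is per transcript length. IFITM2, a membrane protein that blocks viral entry, had the highest mean of the members over the 16 libraries, 414 FPKM, and IFITM3, of the same family, had 131 FPKM. ISG15, the ubiquitin-like modifier, followed with 87.5 FPKM. The transcription factor IRF1 had 29.2 FPKM, the anti-apoptotic protein IFI6 19.97 FPKM, the phospholipid scramblase PLSCR1 19.8 FPKM and the transcription factor STAT2 19.1 FPKM. At the other end were 7 members with too few reads to be tested. IFI44 and IFI44L had 0 reads in all 16 libraries, the antiviral radical-SAM enzyme RSAD2 and SAMD9L had 3 each, the apoptosis factor XAF1 8, the ubiquitin ligase TRIM22 9 and the helicase DDX60 21. The members thus spanned silent genes and highly expressed ones in the same cells. The deposited counts gave 36 members enough reads to be tested, of 17464 genes tested in all.

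**Figure D1:**
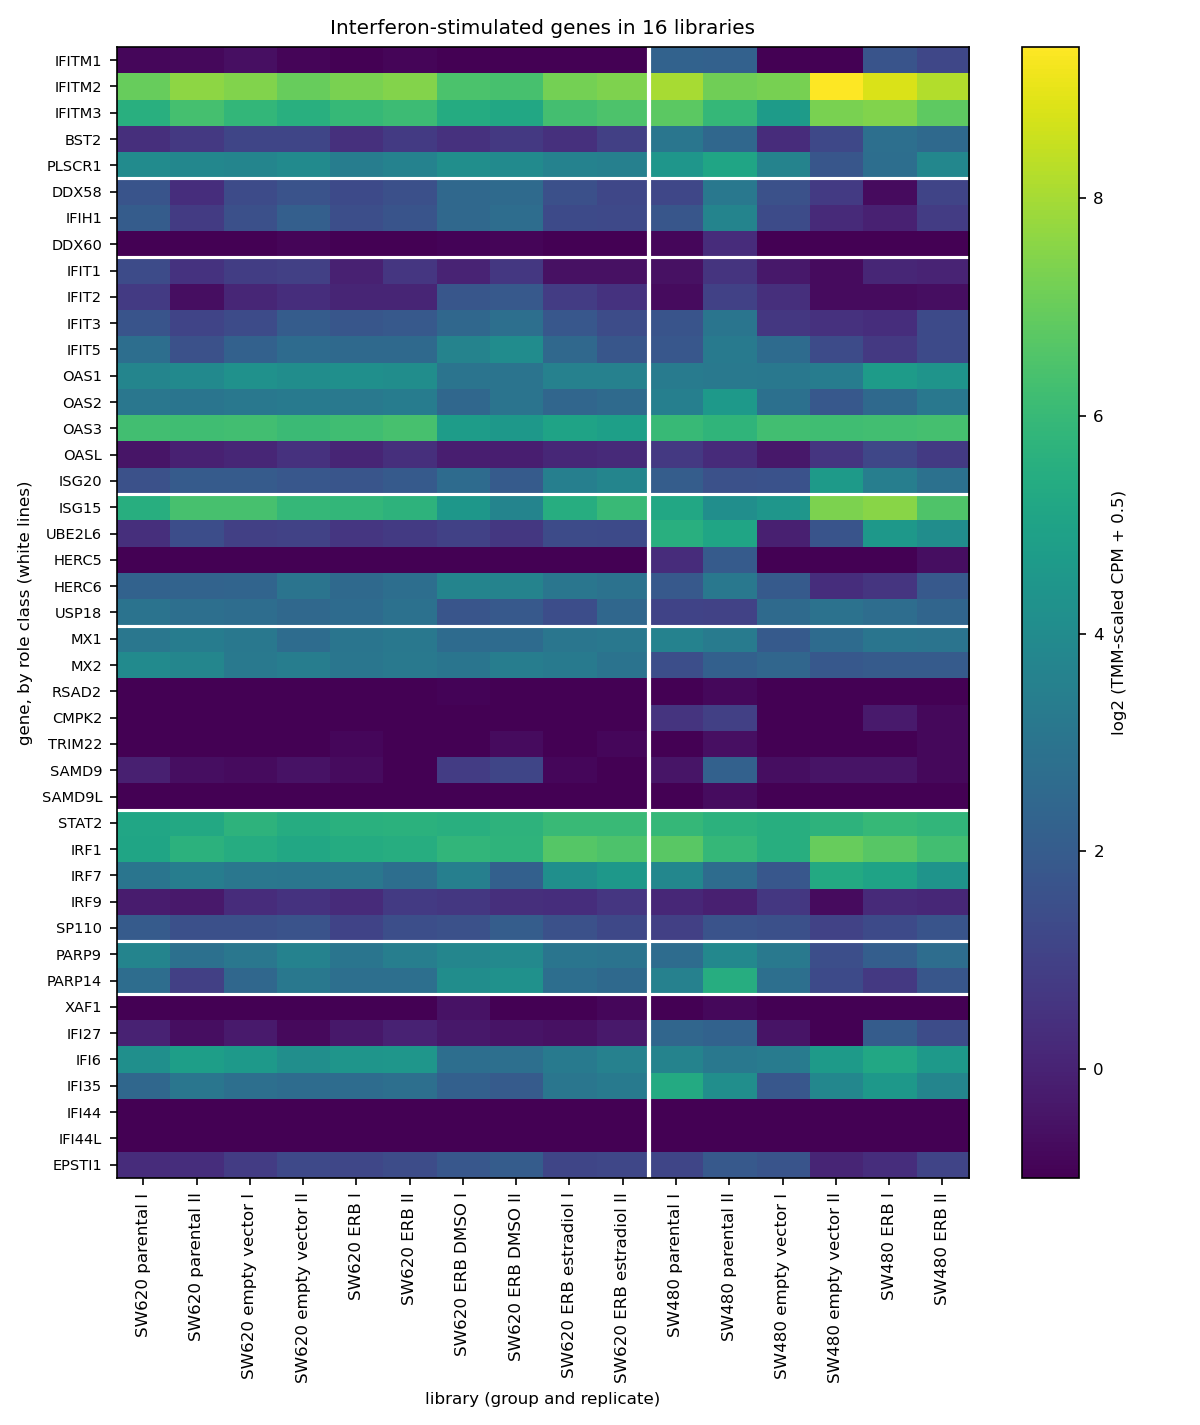
Levels of the 43 interferon-stimulated genes in the 16 libraries, as log2 of TMM-scaled CPM plus 0.5; rows are genes by role class, split by white lines, and columns are libraries, SW620 left and SW480 right of the white line. IFITM2 is bright in every library, IFI44 and IFI44L are dark in every library, and UBE2L6, IFITM1 and IFI27 are brighter in parental SW480 and in SW480 with ERB than in the other libraries.

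The parental lines differed in which interferon-stimulated genes they kept on. In a fit of all 16 libraries with edgeR's quasi-likelihood test, 10 of 36 tested members passed a Benjamini-Hochberg adjusted p of 0.05 over all genes, and such genes are named called below. Of these, 8 were lower and 2 higher in SW620 than in SW480; of all genes tested 18% were called, 11.2% lower and 6.84% higher. The members' median log2 fold change was -0.59 and that of all genes -0.05. HERC5, CMPK2, IFITM1 and IFI27 passed the filter on low counts through the SW480 libraries, so they had to differ, and these counts are a description of the list. On the TMM-scaled CPM scale used below, values follow the order library I, library II.

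Among the membrane proteins, IFITM1, which restricts viral entry at the cell surface, was at 4.32 and 4.23 CPM in parental SW480 and at 0.062 and 0.0779 CPM in parental SW620. The groups did not overlap; the SW620 libraries held 2 reads against 167, a ratio of 68.1 with a 95% counting interval of 18.6 to 567 (counting error only). edgeR gave a log2 fold change of -5.80 ± 0.70 (SE, n = 2 libraries a group), a description, since IFITM1 passed the filter on low counts through SW480. Annotated exons of IFITM1 overlap those of IFITM2 on the same strand. Its difference was not of the same size in the FPKM table. There the lines had 6.05 and 8.87 FPKM (SW620) and 19.7 and 19.9 FPKM (SW480). This was a log2 difference of -1.32 with a limma adjusted p of 0.068. The size of the IFITM1 difference is therefore uncertain. BST2, or tetherin, which holds budding virions at the membrane, was at 7.90 and 5.06 CPM in SW480 and 0.806 and 1.17 CPM in SW620. It was lower in both SW620 libraries, by edgeR with a log2 fold change of -2.71 ± 0.48 and an adjusted p of 0.0022.

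In the ISG15 system, the conjugating enzyme UBE2L6 was at 46.4 and 34.3 CPM in parental SW480 and at 0.806 and 2.26 CPM in parental SW620. Its log2 fold change was -4.73 ± 0.69 (edgeR, adjusted p = 0.00063), and both parental SW620 libraries lay below both parental SW480 ones. HERC5, the main ISG15 ligase, had 91 reads in parental SW480 and 0 in parental SW620, at least 24.7-fold lower if 3 reads are taken as the floor of the group. USP18, the protease that removes ISG15 and also restrains the interferon receptor, went the other way, with 7.32 and 6.46 CPM in SW620 against 1.61 and 1.57 CPM in SW480. Its log2 fold change was 2.11 ± 0.41 (edgeR, adjusted p = 0.0036). ISG15 itself was at 45.1 and 81.7 CPM in SW620 and 36.6 and 17.2 CPM in SW480, without overlap but not called.

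MX2, a GTPase that blocks nuclear entry of viruses, was at 15.01 and 13.3 CPM in SW620 and 2.35 and 4.10 CPM in SW480, a log2 fold change of 2.13 ± 0.37 (edgeR, adjusted p = 0.002). On FPKM the log2 difference was 1.04 (limma adjusted p = 0.083), and the call was lost in all 3 settings of limma on FPKM. Its relative MX1 was at 8.12 and 9.89 CPM in SW620 and 11.7 and 9.601 CPM in SW480, which overlapped. CMPK2, a mitochondrial nucleotide kinase whose exons overlap those of RSAD2 on the other strand, had 49 reads in parental SW480 and 0 in parental SW620, at least 13.3-fold lower. PARP14, an ADP-ribosyltransferase, was at 11.4 and 43.6 CPM in SW480 and 6.14 and 1.48 CPM in SW620, and its call (log2 -2.84 ± 0.79, edgeR adjusted p = 0.026) came with a wide spread inside both lines. PARP9, the other PARP member, overlapped between the lines at 12.2 and 6.70 CPM in SW620 and 5.87 and 14.01 CPM in SW480. IFI27, a mitochondrial protein linked to apoptosis, was at 4.82 and 4.28 CPM in SW480 and 0.496 and 0.156 CPM in SW620. Its log2 fold change of -3.72 ± 0.66 (edgeR) is a description, since it passed the filter on low counts through SW480. IFI35, an interferon-induced leucine zipper protein, was at 40.8 and 17.2 CPM in SW480 and 5.09 and 7.86 CPM in SW620 (log2 -2.16 ± 0.62, edgeR adjusted p = 0.029).

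Tested members of the RNA sensor, RNA effector and transcription factor classes were not called between the parental lines. OAS3, the largest of the oligoadenylate synthetases that activate RNase L, had 74.5 and 72.3 CPM in SW620 and 62.9 and 55.0 CPM in SW480, and IRF1 had 34.5 and 50.8 CPM against 105.8 and 60.4 CPM. IFIH1, the RNA sensor MDA5, had 3.60 and 1.25 CPM in SW620 and 2.902 and 12.4 CPM in SW480, the lines overlapping. Without library II of parental SW620, 6 members were called between the parental lines.

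**Figure D2:**
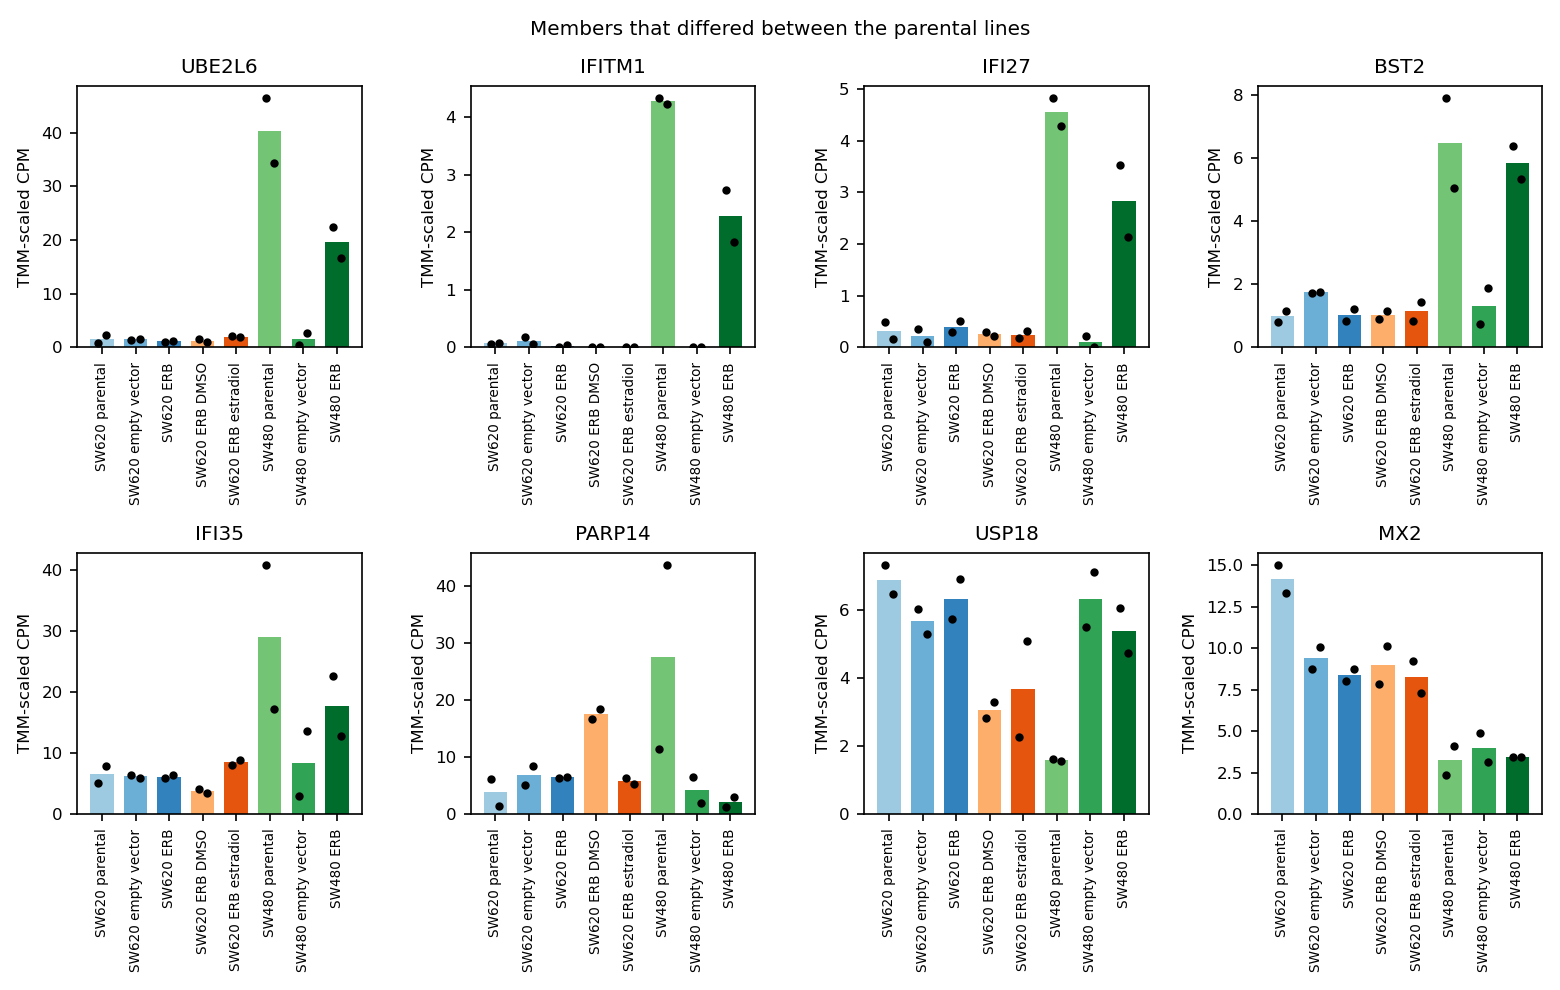
TMM-scaled CPM of 8 members called between the parental lines, by group; bars are means of 2 libraries and points are the libraries. UBE2L6, IFITM1, IFI27, BST2 and IFI35 are high in parental SW480 and SW480 with ERB, and the SW480 libraries labelled empty vector lie near the SW620 libraries for UBE2L6, IFITM1, IFI27 and BST2.

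Within SW480, UBE2L6, IFI27, IFITM1 and BST2 were near the SW620 level in the libraries labelled empty vector and above it in those with ERB. UBE2L6 was at 0.451 and 2.78 CPM in the libraries labelled empty vector, and at 22.5 and 16.7 CPM with ERB, below the 46.4 and 34.3 CPM of the parental line. IFI27 was at 0.225 and 0 CPM with the empty vector label and at 3.54 and 2.14 CPM with ERB. IFITM1 had 0 reads with the empty vector label, and 2.74 and 1.83 CPM with ERB. BST2 was at 0.751 and 1.89 CPM with the empty vector label and at 6.39 and 5.35 CPM with ERB. HERC5 (0 and 0.153 CPM with ERB), CMPK2 (0.342 and 0.0764 CPM) and PARP14 (1.14 and 2.98 CPM) also lay below the parental level with ERB. HERC5 and CMPK2 had 0 reads under the empty vector label, as in every SW620 library. MX2, at 4.88 and 3.12 CPM under the empty vector label, was near its parental SW480 level. The label check above bears on every value under the empty vector label, those of HERC5, CMPK2 and USP18 included. These libraries carried 2.21 and 2.08% of the parental SW480 level of the line genes. Colon epithelial markers ranged from 2897 to 5613 CPM in sum in parental SW480, from 8562 to 30410 CPM under the empty vector label and from 16130 to 29800 CPM with ERB, and the part of this in the members' values was not tested.

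For the comparison of the SW480 libraries labelled empty vector with parental SW480, edgeR called 16 of 36 tested members, 14 lower and 2 higher; 30.9% of all genes were called, 16% lower and 14.9% higher. The members' median log2 fold change was -0.79 and that of all genes -0.11. Reads of HERC5, CMPK2 and IFITM1 came from SW480 libraries almost alone, and those of IFI27 mostly. These genes passed the filter on low counts through the SW480 groups where they are high and had to differ. The counts within SW480 are a description of the list too. Membrane members called lower were IFITM1 (at least 46.3-fold against the floor of 3 reads), BST2 (0.751 and 1.89 CPM, log2 -2.33 ± 0.48, adjusted p = 0.0048) and PLSCR1. In the FPKM table IFITM1 was at 2.66 and 9.76 FPKM under the empty vector label beside 19.7 and 19.9 FPKM in the parental line, a log2 difference of -1.73 (limma adjusted p = 0.017), so the fold is uncertain here too. The RNA-binding members IFIT3 and OAS2 and the sensor IFIH1 were also lower: IFIT3 was at 1.13 and 0.890 CPM beside 2.72 and 7.68 CPM in the parental line, and OAS2 at 6.69 and 3.12 CPM beside 10.8 and 24.1 CPM. UBE2L6 had a log2 fold change of -4.69 ± 0.70 (adjusted p = 0.00069), IFI27 a ratio of 48.8 with a 95% counting interval of 16.4 to 239, HERC5 was at least 25.3-fold lower and CMPK2 at least 13.6-fold lower. MX1 was at 3.38 and 5.79 CPM (log2 -1.22 ± 0.35, adjusted p = 0.021), and SAMD9, an endosomal antiviral factor, PARP14 and IFI35 were lower too. SAMD9 was at 0.150 and 0.223 CPM beside 0.247 and 4.15 CPM in the parental line, so its call rests on parental library II. USP18, at 5.48 and 7.12 CPM, rose by 1.98 ± 0.41 on the log2 scale to the CPM level seen in SW620 (adjusted p = 0.0046). In the FPKM table it was at 5.26 and 3.36 FPKM, beside 1.95 and 1.69 FPKM in the parental line. These values lay below those of every untreated SW620 library. The exonuclease ISG20 was called higher, but its libraries were at 2.55 and 25.0 CPM and the value became -0.28 without library II of the SW480 group labelled empty vector, a change of sign. Without library II of parental SW480 the count was 7, without library II labelled empty vector it was 9, and a fit of the 6 SW480 libraries alone called 3 members (IFITM1, UBE2L6 and IFI27) with 4.39% of all genes called.

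With ERB against parental SW480, 14 of 36 members were called, 10 lower and 4 higher, where 44.4% of all genes were called, 24.9% lower and 19.5% higher. The share of members was 38.9%, and thus not above that of all genes. The SW480 libraries with ERB stood at 17.1 and 20.9% of the parental SW480 level on the genes high in that line. On the genes high in SW620 they stood at 54.4 and 48.3% of the parental SW620 level. The part of this in the members' values, beside that of ERB, was not tested. The sensors DDX58 (RIG-I) and IFIH1, the RNA-binding IFIT3 and IFIT5, OAS2, PLSCR1, HERC5, CMPK2, SAMD9 and PARP14 were lower. SAMD9 was at 0.228 and 0.0764 CPM with ERB beside 0.247 and 4.15 CPM in the parental line, so this call too rests on parental library II. IFIH1 had 0.456 and 1.30 CPM with ERB beside 2.902 and 12.4 CPM in the parental line (log2 -3.06 ± 0.79, adjusted p = 0.013). PARP14 had 1.14 and 2.98 CPM beside 11.4 and 43.6 CPM (log2 -3.71 ± 0.84, adjusted p = 0.0081). OAS1, which makes the activator of RNase L, was at 25.6 and 20.2 CPM with ERB and 9.57 and 8.73 CPM in the parental line, both ERB libraries being higher (log2 1.32 ± 0.28, adjusted p = 0.0067). USP18 was at 6.04 and 4.74 CPM beside 1.61 and 1.57 CPM (log2 1.75 ± 0.41, adjusted p = 0.009). ISG15, at 188.5 and 90.9 CPM beside 36.6 and 17.2 CPM, and IFI6, at 37.0 and 23.8 CPM beside 12.0 and 8.51 CPM, were called higher. With offsets for GC and length, IFIH1, OAS1, ISG15, HERC5, USP18, CMPK2 and PARP14 were still called, and the other 7 were not. This comparison shares its parental libraries with the one above, so their values stand side by side only. A fit of the 6 SW480 libraries alone called 0 members and 0% of all genes, and the count was 0 without library II of parental SW480 and 0 without library I of SW480 with ERB.

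Against the SW480 libraries labelled empty vector, 4 members were called, all higher with ERB, with 1.1% of all genes called in both directions and 1.1% higher. They were IFITM1 (at least 15.7-fold), UBE2L6 (log2 3.65 ± 0.68, adjusted p = 0.021), IFI27 (a ratio of 19.3 with a 95% counting interval of 6.29 to 96.3) and OAS1 (log2 1.34 ± 0.29, adjusted p = 0.047, with 8.41 and 9.68 CPM under the empty vector label). On FPKM, IFITM1 was at 18.3 and 13.96 FPKM with ERB beside 2.66 and 9.76 FPKM, a log2 difference of 1.44 (limma adjusted p = 0.24), and its call was lost in all 3 settings of limma on FPKM. In the comparison without those libraries, ERB versus parental, the same 3 genes had 22.5 and 16.7 CPM (UBE2L6), 2.74 and 1.83 CPM (IFITM1) and 3.54 and 2.14 CPM (IFI27), each below the parental libraries. OAS1, at 25.6 and 20.2 CPM with ERB, lay above the libraries of both other SW480 groups. The count was 1 without library I and 1 without library II of SW480 with ERB, 9 without library II labelled empty vector, and 0 members with 0% of all genes in the 6 SW480 libraries alone.

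Libraries I and II of the SW480 groups and of parental SW620 differed along the GC content of the members' transcripts. In parental SW620, library II was below library I for the low-GC members PARP14 (-1.75), IFIT2 (-1.36) and DDX58 (-1.34). It was above library I for the high-GC members UBE2L6 (1.08), ISG15 (0.85) and IFITM3 (0.78), but not for IRF9 (-0.10). In the SW480 group labelled empty vector, library II was above library I by 3.48 for IRF7, a master regulator of interferon production (66.9% GC), by 3.06 for ISG20 (53.0% GC), by 2.89 for ISG15 (63.4% GC) and by 2.14 for IFITM2 (55.4% GC), on the log2 scale of CPM plus 0.5. It was below library I for PLSCR1 (-1.90, 39.6% GC), PARP9 (-1.70, 43.4% GC), EPSTI1 (-1.60, 42.3% GC) and PARP14 (-1.49, 42.4% GC). IRF9 (-1.41, 55.4% GC) and OAS3 (-0.07, 54.3% GC), of high GC content, were not above library I. IFITM2 was accordingly at 152.3 and 670.8 CPM in this group, and ISG15 at 21.6 and 163.1 CPM. The part of this in the calls of single members was not tested beyond offsets for GC and length, under which 7 of the 14 calls in ERB versus parental SW480 were kept; PLSCR1 and IFIT5 changed sign (0.20 and 0.47 on the log2 scale), and the calls of DDX58, IFIT3, OAS2, SAMD9 and IFI6 were lost.

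**Figure D3:**
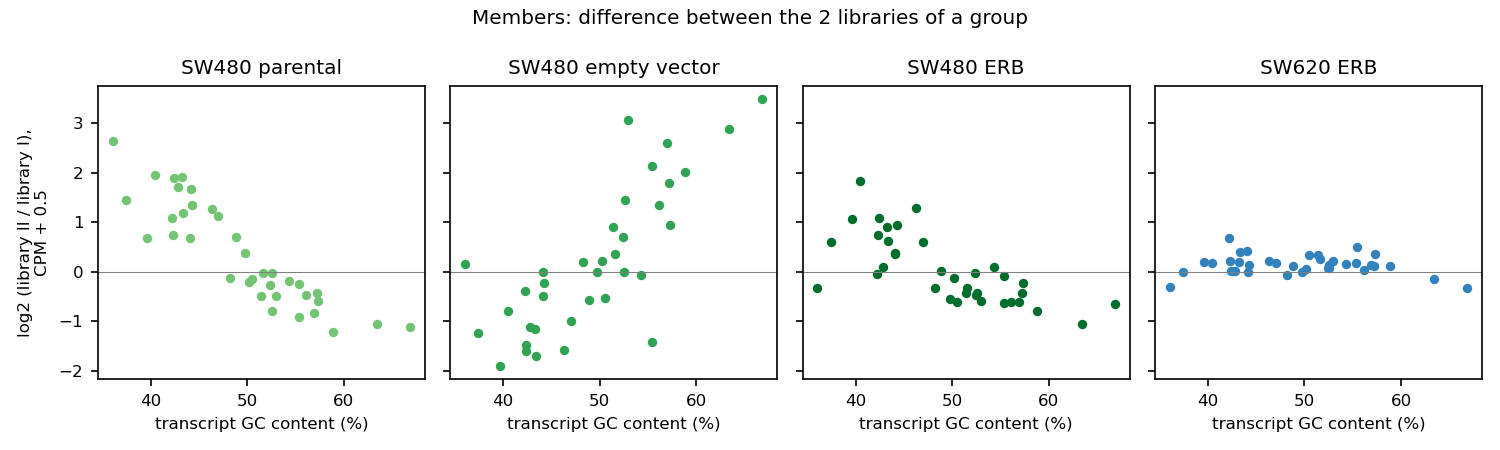
Log2 difference between library II and library I of a group (CPM plus 0.5) against transcript GC content in percent, 1 point per tested member. Of the SW620 groups only SW620 with ERB is shown, and parental SW620, which also differed along GC content, is not. In parental SW480 and SW480 with ERB most high-GC members are lower in library II, in the SW480 group labelled empty vector most are higher, IRF9 (-1.41) and OAS3 (-0.07) being exceptions, and in SW620 with ERB the points lie near 0.

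In SW620, no member was called after transduction with the empty vector or with ERB. For empty vector versus parental SW620, edgeR called 0 of 36 members, and 0% of all genes; 0 members had an unadjusted p under 0.05, and DESeq2 and limma on FPKM also called 0. For ERB versus empty vector in SW620, edgeR called 0 members with 0.00573% of all genes, 0 had an unadjusted p under 0.05, and DESeq2 and limma called 0. OAS3 had 75.3 and 67.3 CPM with empty vector and 72.5 and 81.3 CPM with ERB, a log2 difference of 0.11 ± 0.23. IFI6 had 23.3 and 17.3 CPM and then 21.1 and 21.5 CPM, ISG15 had 81.7 and 60.5 CPM and then 57.7 and 52.2 CPM, and IFITM2 had 170.9 and 125.9 CPM and then 157.5 and 176.9 CPM. The libraries of the 2 groups overlapped for OAS3, IFI6 and IFITM2, and those of ISG15 with ERB were both lower; a p that misses the threshold does not show that the groups were equal.

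Between the lines, both labelled empty vector, edgeR called 0 members with 0.326% of all genes, while 8 members had an unadjusted p under 0.05; DESeq2 called 1 and limma on FPKM 0. UBE2L6 was at 1.45 and 1.55 CPM in SW620 and 0.451 and 2.78 CPM in SW480, and USP18 at 6.04 and 5.28 CPM and 5.48 and 7.12 CPM. MX2 was at 8.76 and 10.1 CPM in SW620 and 4.88 and 3.12 CPM in SW480, the groups apart but not called (log2 -1.23 ± 0.37, edgeR adjusted p = 0.29). Without library I of SW480 labelled empty vector, 10 members were called.

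The contrast of empty vector against parental differed between the lines for 5 members, 4 lower and 1 higher in SW480; 7.2% of all genes were called in this interaction, 4.2% lower and 3.01% higher. The 4 lower were IFITM1, BST2, UBE2L6 and IFI27, and the higher was USP18. IFITM1 and IFI27 passed the filter on low counts through SW480 libraries where they are high, so this count is a description too. The calls of IFITM1 and USP18 were lost in all 3 settings of limma on FPKM. USP18, for example, had 7.32 and 6.46 CPM in parental SW620 and 6.04 and 5.28 CPM with empty vector, and 1.61 and 1.57 CPM in parental SW480 beside 5.48 and 7.12 CPM under the empty vector label. Leaving out 1 library at a time moved the count from 1 (either SW620 empty vector library) to 19 (library I of SW480 labelled empty vector); it was 2 without library II of parental SW620, 9 without library I and 3 without library II of parental SW480. For the difference between lines of ERB versus empty vector, edgeR called 0 members and 0.189% of all genes, with 5 members at an unadjusted p under 0.05; DESeq2 called 4, limma on FPKM 1 or 2, and edgeR 2 without library II of SW480 labelled empty vector.

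In SW620 with ERB, 2 oligoadenylate synthetases and IFI6 were lower in the treated cells on the CPM scale. With DMSO against untreated cells, OAS3 went from 72.5 and 81.3 CPM to 26.7 and 23.0 CPM, a log2 fold change of -1.63 ± 0.24 (edgeR, adjusted p = 0.0067). OAS1 went from 17.5 and 16.8 CPM to 7.53 and 7.56 CPM (log2 -1.18 ± 0.28, edgeR adjusted p = 0.033). IFI6 went from 21.1 and 21.5 CPM to 6.30 and 6.52 CPM (log2 -1.73 ± 0.45, edgeR adjusted p = 0.045). For these 3 members, both DMSO libraries lay below all 6 untreated SW620 libraries, whose lowest values were 67.3, 12.6 and 17.3 CPM. The same order held for ISG15, USP18, OAS2, IFITM2, IFITM3, MX1 and IFI35, which were not called. Others, PARP14 and IFIT5 among them, lay above all 6. The share of all genes with such an order was not counted. On FPKM, OAS1 overlapped, with 5.81 and 9.78 FPKM with DMSO, 9.81 and 8.83 FPKM with estradiol and 7.70 and 8.45 FPKM in parental SW620. The calls of OAS1 (log2 -0.84, limma adjusted p = 0.11) and OAS3 (log2 -0.81, limma adjusted p = 0.15) were lost in all 3 settings of limma on FPKM, and that of IFI6 was kept (log2 -1.28, limma adjusted p = 0.014). In this comparison 3 of 36 members were called, all lower, where 6.15% of all genes were called and 3.76% lower. The members' median log2 fold change was 0.01 and that of all genes 0.00.

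In the cells given estradiol, the same 3 members lay below the untreated SW620 libraries in CPM as well, with OAS3 at 32.4 and 28.95 CPM, OAS1 at 11.2 and 11.5 CPM and IFI6 at 9.22 and 11.3 CPM. Estradiol against DMSO gave 0 called members and 0% of all genes by edgeR, with 5 members at an unadjusted p under 0.05, and 0 by DESeq2 and by limma on FPKM. In a fit of the 10 SW620 libraries alone, edgeR called 21 members in this comparison with 53% of all genes, 17 with DMSO against untreated with 48.8%, and 6 with estradiol against untreated with 20.9%. OAS3 differed by 0.30 ± 0.23 on the log2 scale, IFI6 by 0.68 ± 0.45 and OAS1 by 0.59 ± 0.28. Estradiol against untreated cells, a comparison added after the values were seen and sharing the untreated libraries with the DMSO comparison, called OAS3 alone (log2 -1.33 ± 0.23, edgeR adjusted p = 0.02; on FPKM -0.65, limma adjusted p = 0.42); 1.73% of all genes were called and 0.67% lower. The labels do not say whether the estradiol was given in DMSO, so no vehicle share of these values can be stated. With any 1 of the 4 libraries compared removed, the count of called members was 0 for DMSO against untreated and 0 for estradiol against untreated.

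ISG20, IRF1 and IRF7, picked after their values were seen, had their highest SW620 levels with estradiol; OAS1, OAS2 and OAS3, RNA effectors like ISG20, lay below the untreated cells there in CPM. ISG20 was at 10.6 and 12.8 CPM with estradiol, 5.75 and 3.46 CPM with DMSO and 2.83 and 3.35 CPM untreated. IRF1, which drives interferon-gamma and antigen presentation genes, was at 99.3 and 88.5 CPM, beside 56.5 and 53.8 CPM and 42.0 and 44.0 CPM. IRF7 was at 17.4 and 22.6 CPM, beside 10.8 and 4.04 CPM and 8.07 and 6.30 CPM. For all 3, both estradiol libraries were above every other SW620 library, as they were for STAT2 (66.02 and 66.04 CPM). The share of all genes with this order was not counted. None of the 3 was called in the fit of 16 libraries (estradiol against untreated, edgeR adjusted p = 0.24, 0.23 and 0.46).

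A fit of the 10 SW620 libraries alone with offsets for GC content and length, added after the data were seen, called more members, against a higher background. It called 14 members with DMSO (7 higher and 7 lower; 47% of all genes, 21% higher and 25.9% lower), so the share of members was near that of all genes. In it OAS3 (log2 -1.44 ± 0.11, adjusted p = 3.7e-06), OAS1 (-1.26 ± 0.14, adjusted p = 3.7e-05), IFI6 (-1.02 ± 0.14, adjusted p = 0.00015), OAS2, ISG15, USP18 and IFITM2 were lower, and IFIT2, ISG20, HERC6, SAMD9, IRF1, IRF7 and PARP14 were higher, all by edgeR. For estradiol against DMSO it called 6 members, 5 higher (PLSCR1, OAS1, ISG20, ISG15 and IRF1) and SAMD9 lower, where 18.7% of all genes were called, 11.1% higher and 7.67% lower. ISG20 had a log2 fold change of 1.09 ± 0.23 (edgeR adjusted p = 0.016) and IRF1 of 0.53 ± 0.15 (edgeR adjusted p = 0.033). For estradiol against untreated it called 9 members, where 38.1% of all genes were called, 18.5% higher and 19.7% lower. ISG20 (1.79 ± 0.24, adjusted p = 0.00019), IRF1 (0.998 ± 0.15, adjusted p = 0.00043) and IRF7 (1.31 ± 0.21, adjusted p = 0.00053) were higher there, and OAS3, OAS1, OAS2, IFI6, IFIT1 and USP18 were lower, by edgeR. SAMD9 was at 1.28 and 1.73 CPM with DMSO, 0.121 and 0 CPM untreated and 0.0611 and 0 CPM with estradiol. The ratio over the untreated libraries was 34.4 with a 95% counting interval of 9.12 to 291. Among the SW620 libraries SAMD9 passed the filter on low counts only through DMSO, so its calls and ratio are a description.

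**Figure D4:**
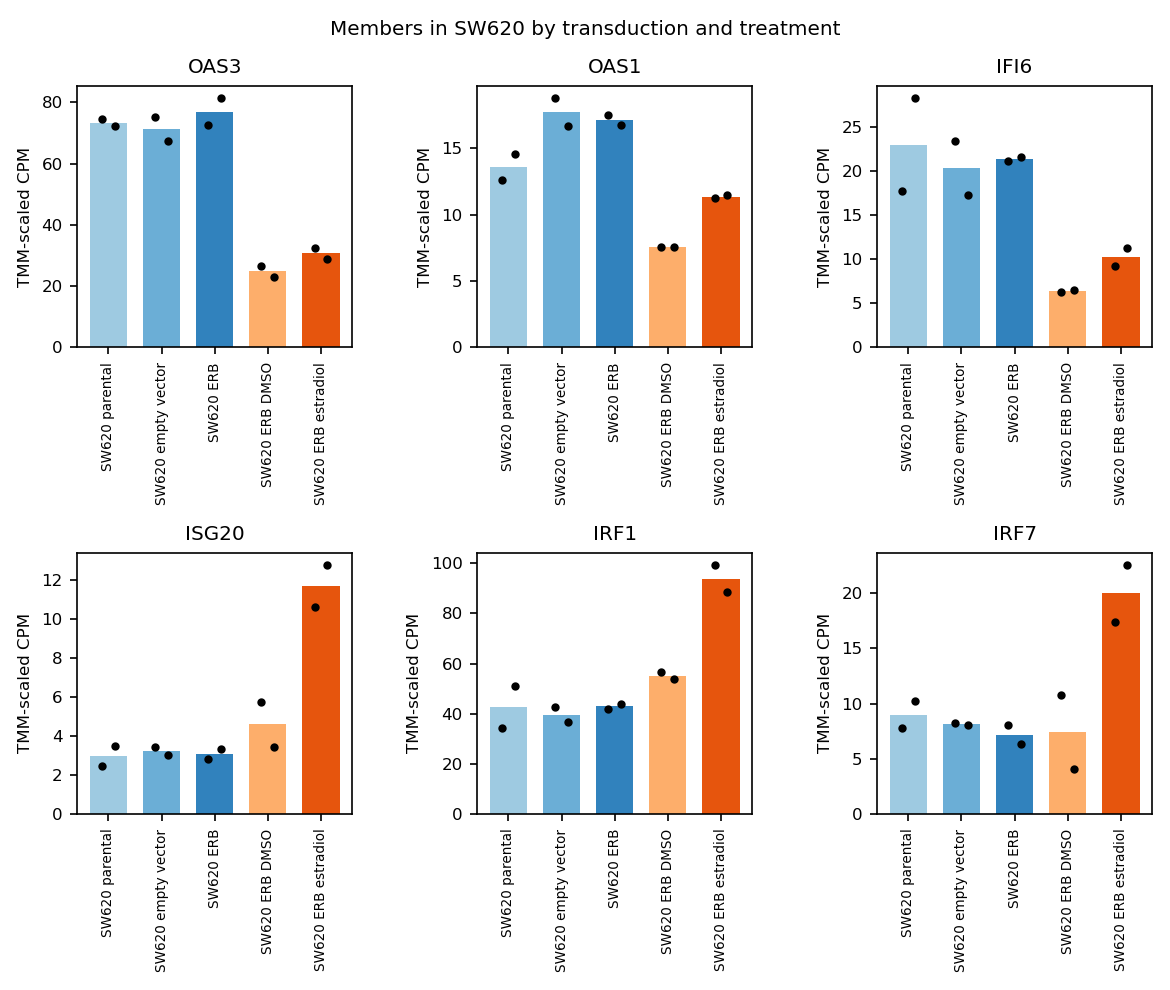
TMM-scaled CPM of 6 members in the 5 SW620 groups; bars are means of 2 libraries and points are the libraries. On this scale OAS3, OAS1 and IFI6 are lower in both treated groups than in the 3 untreated ones, and ISG20, IRF1 and IRF7 are highest with estradiol.

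The treated groups also differed from the untreated cells in the composition of their libraries. The DMSO libraries deviated by -0.56 and -0.91 on the log2 scale for the fifth of genes with the highest GC and by 0.82 and 1.001 for the fifth with the lowest, and the estradiol libraries by -0.02 and 0.26 for the highest. Of the members with low GC content, IFIT5 (37.4% GC) was at 11.9 and 16.2 CPM with DMSO, beside 5.42 and 5.39 CPM untreated and 5.19 and 2.95 CPM with estradiol, and PARP14 (42.4% GC) was at 16.7 and 18.4 CPM, beside 6.39 and 6.45 CPM and 6.23 and 5.33 CPM. IFIT1 (42.2% GC) was not high, with 0.511 and 1.10 CPM with DMSO and 0.482 and 1.07 CPM untreated, and none of these was called in the fit of 16 libraries. Of the called members, OAS3 has 54.3% GC, OAS1 48.2% and IFI6 56.1%, and IFI6 went from a log2 fold change of -1.73 in the fit of 16 libraries to -1.02 with the offsets in the SW620 libraries. Marker sums moved as well: colon epithelial markers ranged from 3414 to 3964 CPM in sum with DMSO and from 10510 to 10690 CPM untreated, and leukocyte markers from 0.894 to 1.10 CPM against 3.92 to 4.83 CPM, with VIL1, LYZ and COL1A1 called lower with DMSO by edgeR. The part of these shifts in the members' values was not tested.

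**Figure D5:**
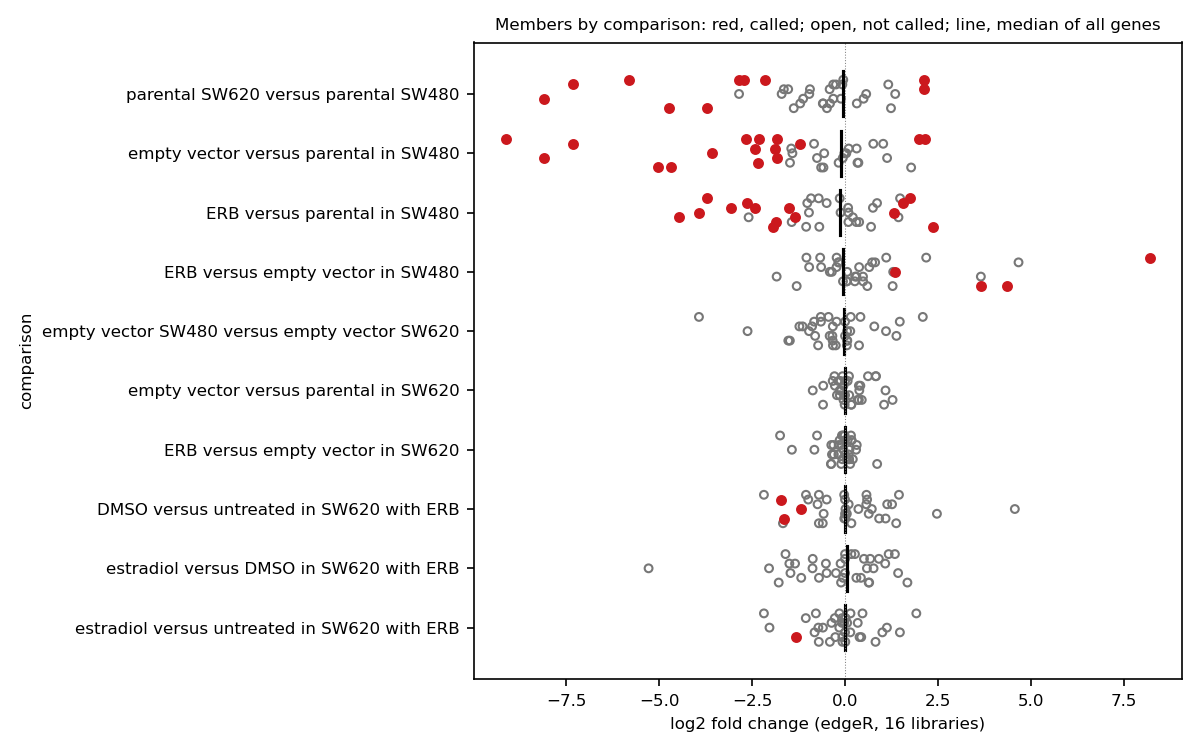
Log2 fold changes of the 36 tested members in 10 comparisons (rows) from the fit of 16 libraries; filled red points are called, open points are not, and the black line is the median of all genes tested. Calls lie mostly left of 0 in the first 3 rows, and the rows of SW620 transduction have open points close to 0.

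Other parts of the interferon pathway were counted from lists chosen with earlier results of these data known. Of 24 ligand symbols, 21 had an identifier in the count table; IFNB1, the interferon that most cells make first, had 0 reads in all 16 libraries, and only IFNE and IFNL1 had any, with 2 reads each. None of the 6 receptor genes was called between the parental lines; with ERB against parental SW480, 3 of 6 were lower, where 24.9% of all genes were called lower.

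Between the parental lines, where 18% of all genes were called and 11.2% lower, 2 of 17 tested signalling genes were called, TBK1 lower and MYD88 higher in SW620. Of 9 negative regulators, SOCS1 and SOCS3, which block JAK kinases, were lower, and CISH was higher. Of 23 tested further interferon-induced genes, 6 were lower and 2 higher: NMI, a partner of IFI35, had a log2 fold change of -3.05 ± 0.55 (edgeR adjusted p = 0.0023), and the GTPase GBP2 went the other way with 4.31 ± 0.77 (edgeR adjusted p = 0.0022). Of 15 genes of MHC class I and antigen processing, 3 were lower, HLA-B, HLA-E and the immunoproteasome subunit PSMB9. In SW620, edgeR called 0 of the 70 tested genes of these lists with empty vector, with ERB, with DMSO and with estradiol against DMSO, where 0, 0, 16 and 9 had an unadjusted p under 0.05. DESeq2 and limma were not read for these lists, and nothing is called particular to them.

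The remaining members, with STAT2 and IFITM3, are given as ranges over the 16 libraries. HERC6, a relative of HERC5, ran from 0.779 to 12.3 CPM, and its highest libraries were those with DMSO. IFIT1, which binds RNA without a 2′-O-methylated cap, ran from 0.111 to 2.11 CPM, IFIT2 from 0.111 to 3.29 CPM, and OASL, an OAS-like protein that boosts RIG-I, from 0.248 to 1.83 CPM. EPSTI1 ran from 0.557 to 3.58 CPM, and the nuclear body protein SP110 from 1.48 to 3.69 CPM. STAT2 ran from 35.1 to 66.04 CPM, its highest libraries being those with estradiol. IRF9, its DNA-binding partner, ran from 0.111 to 1.22 CPM in the counts but from 3.83 to 9.99 in FPKM; its exons overlap another annotated gene, so its level is uncertain. IFITM3 ran from 25.3 to 172.8 CPM. Antisense or overlapping genes were annotated for IFITM3, IFIT2, OAS1, ISG15, MX1, TRIM22, IRF1, SP110, PARP9, XAF1, RSAD2 and CMPK2 as well, and no source used here says whether counting used the strand.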

How the data were processed

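Per the labels' protocols, a stranded mRNA kit was used to make the libraries. The authors deposited read counts per gene and FPKM values per gene for 16 libraries. The submitters' processing notes name TopHat2 2.0.4, SAMtools, Picard 1.29, HTSeq 0.6.1, Cufflinks 2.1.1 and GRCh37, without roles; no source used here says whether counting used the strand.

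Labels gave each library's group and number. The counts as deposited were filtered with filterByExpr (17464 of 63677 genes kept), scaled with TMM factors (0.585 to 1.36) and fitted with 1 edgeR quasi-likelihood model of 8 groups (edgeR 4.0.16, R 4.3.3); p-values are two-sided and adjusted by Benjamini-Hochberg over all genes of a comparison. CPM values are TMM-scaled and SEs come from the F statistic. The members, lists and rules were chosen with earlier results of these data known. Values in every library are given for up to 15 members called in at least 1 of 9 comparisons, by smallest adjusted p, and for the member of highest mean FPKM in each role class; other members are named with levels or calls. Values of 2 genes outside the members are not reported here. Alternatives were DESeq2 1.42.0, limma 3.58.1 on log2 (FPKM + 1 or 0.1), other scaling and filters, a replicate block, 1 line only, libraries left out, and offsets for GC and length (98% of tested genes), the last added after seeing the data. The scripts were tested on simulated data. Libraries of a group differed beyond sampling noise (chi-square per degree of freedom 7.2 to 280), so none was counted as a repeat. With 2 libraries a group, precision rests on the spread shared over groups, and low members on few reads; intervals cover counting error only. GENCODE and RefSeq sequences are of GRCh38, used for transcript GC, overlaps and promoters only.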

Additional observations from a re-analysis of the deposited data

Results flagged for a closer look

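The change from parental to empty vector cells differed between SW480 and SW620 by a test of the difference itself for 5 members (edgeR interaction, SW480 change minus SW620 change on the log2 scale). It was -9.73 for IFITM1, -4.68 for UBE2L6 (adjusted p = 0.012), -3.16 for BST2 (adjusted p = 0.017), -4.44 for IFI27 and 2.27 for USP18 (adjusted p = 0.03). The IFITM1 value is a fitted one with 0 reads in the SW480 libraries labelled empty vector and is no measure of size. On FPKM it was -1.39 (limma adjusted p = 0.19). The USP18 call was lost in all 3 settings of limma on FPKM, and those of BST2, UBE2L6 and IFI27 were kept. With a replicate block IFI27 and USP18 were not called. IFITM1 and IFI27 passed the filter on low counts through SW480 libraries where they are high, so their values here are a description and not a test. All 5 rest on the SW480 libraries labelled empty vector, which carried 2.21 and 2.08% of the parental SW480 level of 299 other genes, and the part of that in these values was not tested.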

How the results depend on the processing

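The 53 member calls were set against 753 refits: 508 kept the call, 240 lost it and 5 changed sign, and 7 calls were kept in all of them. Changes of sign were ISG20 in empty vector versus parental SW480 without library II labelled empty vector (-0.28; 3.01 without library I of that group), and in ERB versus parental SW480 PLSCR1 (0.20 with GC and length offsets, 0.23 with these in the SW480 libraries alone) and IFIT5 (0.47 and 0.54). The cause of the shifts below was not tested.

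Counts of called members follow, where they moved by over 1.5 times. For most of them, and for the counts with 1 library left out here and above, the share of all genes called is not given. Such counts describe the refits and are no result about the members. Without a low-count filter, 3 were called in empty vector SW480 versus SW620, 5 with DMSO, 3 in estradiol versus DMSO, and 8 and 2 in the differences between lines of empty vector versus parental and of ERB versus empty vector. With a replicate block, 1 was called with DMSO and 3 in the difference of empty vector versus parental. The replicate numbers did not pair the libraries: of 28 pairs of groups, 9 had a correlation of library I minus II over 0.1, the range being -0.81 to 0.73, so a call lost under the block is not described as weaker. The fit without the SW480 libraries labelled empty vector gave 6 with DMSO and 3 in estradiol versus untreated.

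Libraries of 1 line alone gave 17 with DMSO (48.8% of all genes), 21 in estradiol versus DMSO (53%) and 6 in estradiol versus untreated (20.9%), and in SW480 3 in empty vector versus parental (4.39%), 0 in ERB versus parental and 0 in ERB versus empty vector (0%). With GC and length offsets added, these were 14 (47%), 6 (18.7%), 9 (38.1%), 8 (20.8%), 4 (12.6%) and 2 (0.78%). GC and length offsets in all 16 libraries gave 19 between the parental lines, 6 with DMSO, 5 in estradiol versus untreated, and 10 and 2 in the differences of empty vector versus parental and of ERB versus empty vector.

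DESeq2 called 1 in empty vector SW480 versus SW620, and 9 and 4 in the same 2 differences. On FPKM, limma called 2 in ERB versus empty vector in SW480 under each setting, 2 (pseudocount 1), 1 (pseudocount 0.1) and 1 (no filter) in the difference of ERB versus empty vector, 0 in estradiol versus untreated under each, 1 with DMSO at pseudocount 0.1 and 6 in ERB versus parental SW480 without a filter.

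With 1 library left out at a time, the lone library of a group being taken to vary like the others, counts ran from 6 to 14 between the parental lines, 7 to 21 in empty vector versus parental SW480, 0 to 15 in ERB versus parental SW480, 1 to 9 in ERB versus empty vector in SW480, 0 to 10 in empty vector SW480 versus SW620, 0 to 0 with DMSO, 0 to 0 in estradiol versus untreated, 1 to 19 in the difference of empty vector versus parental and 0 to 2 in that of ERB versus empty vector. Low reads limit IFITM1, HERC5, CMPK2, SAMD9 and IFI27.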
